A study of Homo sapiens with 6 samples.

Results

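Cadherins and protocadherins are calcium-dependent adhesion proteins of the cell surface. The genes described here are the protein-coding genes of a deposited expression table whose symbol is CDH followed by a number or begins with PCDH. There were 27 of them among the 15897 genes listed, of which 13617 were protein-coding. They comprised 7 CDH genes, 8 protocadherin genes outside the clusters of chromosome 5 and 12 protocadherin genes within these clusters. The annotation of GRCh37 (GENCODE release 44, lifted to this build) holds 89 genes with such symbols, so most of the family was not listed, and the rule by which the authors chose the listed genes is not given in the sources used here.

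RNA was sequenced from cells labelled H1650, an established human lung adenocarcinoma line, in 6 libraries. The 3 control libraries were labelled wild type, and the 3 shSETD2 libraries carried short hairpin RNA against SETD2, a histone H3K36 methyltransferase. Stable lines were made with lentivirus. A scrambled control virus is named for the reporter assays, but what the control cells of these libraries were given is not stated. The methods name 3 hairpins against SETD2 with the same numbers as the titles of the shSETD2 libraries, but do not say that each library came from the hairpin of its number, nor whether the libraries came from separate cultures, so p-values measure only the spread between these libraries.

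Classical cadherins join cells through their outer domains and bind catenins inside the cell, which link them to actin. CDH1 (E-cadherin) is the main cadherin of epithelia such as that of the lung, and CDH2 (N-cadherin) that of neural and many mesenchymal cells. Protocadherins do not bind these catenins in the same way. The genes of the alpha, beta and gamma clusters are each read from a promoter of their own, and in the alpha and gamma clusters a variable first exon is spliced to constant exons shared by the cluster.

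SETD2 (ENSG00000181555.20_4; chromosome 3, 47057919 to 47205457) was examined first. Its FPKM (fragments per kilobase of transcript, scaled to sequencing depth) was 18.0, 10.2 and 17.6 in control libraries 1 to 3, and 8.97, 8.09 and 12.2 in shSETD2 libraries 1 to 3. Control library 2 was lower than shSETD2 library 3, so the groups overlapped. In all that follows, values are given in the order of the library numbers. The log2 fold change of log2(FPKM + 1) was -0.58 (standard error, SE, 0.240, adjusted p = 0.0641 in limma), and -0.83 without control library 2 (adjusted p = 0.00666, within a range from 0.00666 to 0.377 over the alternatives) and -0.73 without shSETD2 library 3 (adjusted p = 0.0420). After median ratio scaling it was -0.25 (adjusted p = 0.377). With the replicate number as a block SETD2 passed the threshold, as given in the closing part, although these numbers did not pair the libraries. The libraries of the groups overlapped in the targeted gene, and the groups are therefore named by the labels of their libraries. Across genes, which are not independent replicates, the correlation of libraries was 0.982 to 0.990 within a group and 0.701 to 0.707 between the groups. Whether both groups hold the same cells apart from the hairpin was not tested, so a difference between them cannot be told apart from a difference in the cells.

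The labelled tissue was compared with its markers. Of 10 markers of lung epithelium, 3 were listed, and no surfactant gene was among them. NKX2-1, a transcription factor of lung epithelium, was at 1.71, 1.80 and 1.44 FPKM across the controls and was listed at 0 in all 3 shSETD2 libraries. The summed FPKM of the 3 listed markers was 15.8, 15.8 and 15.8 across the controls, compared with 11.5, 10.4 and 11.1 across the shSETD2 libraries, with ABCA3 the most abundant. MUC1, the other listed marker, went against the sum, with means of 0.639 and 2.65 and a log2 fold change of 1.15 (adjusted p = 7.60e-05).

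Markers of other cell types also moved with the labels. Of 10 genes of renal epithelium and its progenitors, 5 passed as higher and 5 as lower in the shSETD2 libraries. PAX8, the most abundant, was at 0.0147, 0.0368 and 0 FPKM across the controls, compared with 35.2, 28.1 and 29.2 across the shSETD2 libraries, while SIX2 was at 5.19, 5.84 and 5.44 in the control libraries and listed at 0 in the shSETD2 libraries. The summed FPKM of the 10 genes was 28.1, 30.7 and 28.3 across the controls, compared with 71.3, 60.2 and 63.7 across the shSETD2 libraries. Of 14 neural and neuroendocrine genes, 7 were listed, and 5 of these were at 0 in every shSETD2 library. The others were TUBB3, which was higher there, with means of 1.32 and 16.1 (log2 fold change 2.91, adjusted p = 1.14e-05), and SYP, which missed the threshold (0.23, adjusted p = 0.0606). For all 7 genes the summed FPKM was 75.4, 72.3 and 73.7 across the controls, compared with 18.6, 19.6 and 18.1 across the shSETD2 libraries, with NEFM the most abundant. Among all 15897 listed genes, 1225, 1189 and 1227 were at 0 in shSETD2 libraries 1 to 3. The 8 listed of 9 epithelial markers, CDH1 included, summed to 16.2, 14.2 and 15.1 in the control and to 438.1, 402.1 and 454.5 in the shSETD2 libraries, where KRT18 was the most abundant. The keratins KRT7, KRT8 and KRT18 carried this sum. Without the filter on low values, ESRP1 and CLDN4 were also higher, whereas CDH1, EPCAM (means of 0.710 and 0.220, adjusted p = 0.00108) and CLDN7 (0.192 and 7.97e-06, adjusted p = 0.0104) were lower. The part of these markers in the results on cadherins was not tested. Fewer cells of a type and less RNA per cell cannot be told apart in such bulk libraries.

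The libraries labelled control and shSETD2 differed across much of the table, and the cadherin and protocadherin genes are read against that background. Of the 27 genes, 14 averaged 0.5 FPKM or more over the 6 libraries and entered the limma test. With 0.05 as the threshold of the adjusted p, 3 were higher in the shSETD2 libraries and 10 lower, while 26.8% of all 14068 genes tested were higher and 51.8% lower. A gene that passes this filter only through the group where it is high had to differ, so all 27 genes were also fitted without it. Then 8 were higher, 13 lower and 6 neither, against 25.6% higher and 51.8% lower among all 15775 genes above 0 in a library. As shares of the 27 genes, these are 29.6% higher and 48.1% lower, near the background. Their median log2 fold change was -0.03, against -0.29 over all 15775 genes.

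The groups overlapped for 6 of the 27 genes. For 9 genes the lowest shSETD2 library exceeded the highest control library, as it did for 26.5% of all listed genes, and the reverse held for 12, as for 52.9%. An FPKM of 1 or more in every control library and under 0.1 in every shSETD2 library was found for 3 of the 27 genes, PCDH9, PCDH10 and PCDH20, and for 3.94% of all listed genes. The reverse was found for 0 of the 27 and for 1.74% of all listed genes. Across the tested genes, the median difference on the log2 scale was -0.29 for the deposited values, -0.01 after scaling by the median ratio and -0.10 after quantile normalization, so that some differences are also given relative to -0.29.

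**Figure D1:**
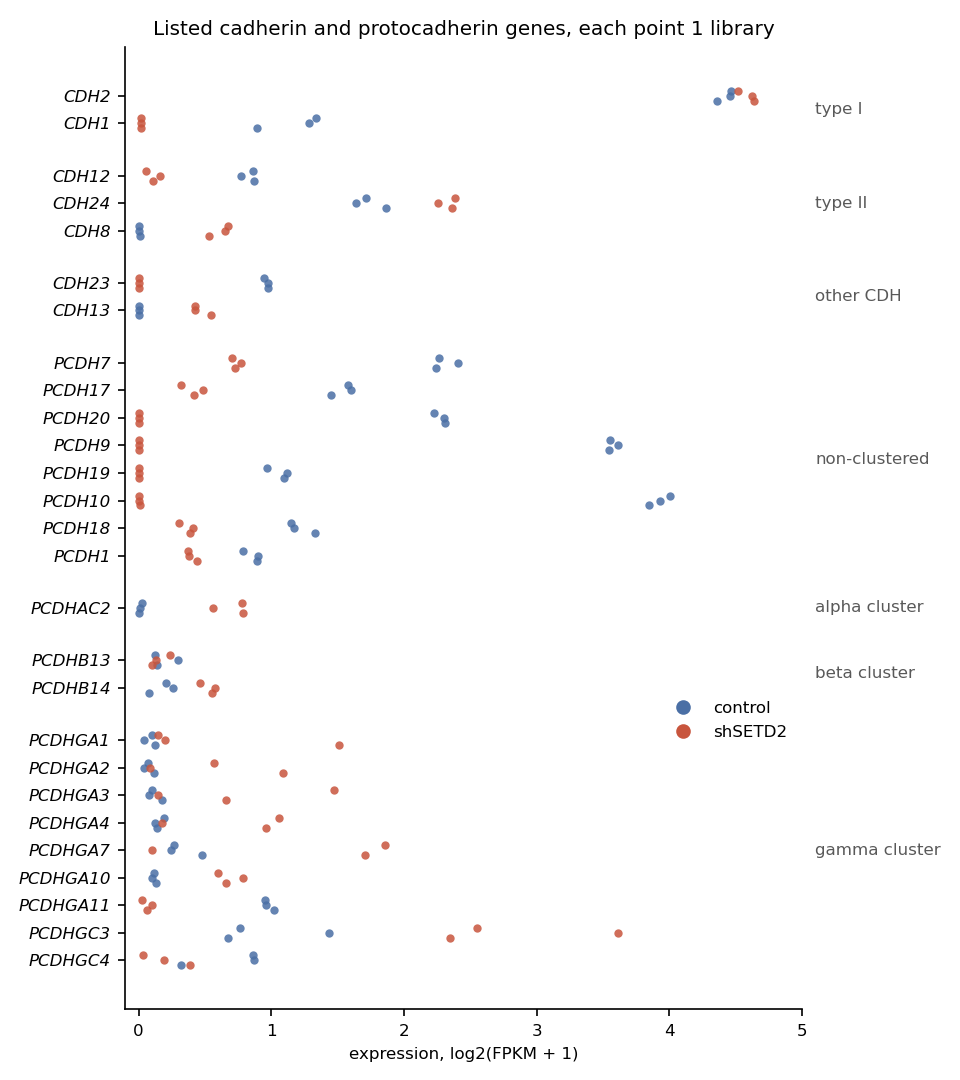
Expression of the 27 listed genes on the log2(FPKM + 1) scale, with 1 point for each of the 3 control (blue) and 3 shSETD2 (red) libraries and the genes grouped by class. The 8 non-clustered protocadherins lie lower in every shSETD2 library than in every control library, although PCDH1 turns to a log2 fold change of 0.089 after quantile normalization, and most gamma genes spread widely among the shSETD2 libraries.

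Of 18 annotated classical cadherins of types I and II, 5 were listed. CDH2 (ENSG00000170558.8_3; chromosome 18, 25530930 to 25757410, minus strand) had the highest FPKM of the 27 genes in both groups. It was at 21.1, 21.0 and 19.5 FPKM across the controls, a mean of 20.5 ± 0.882 (SD, n = 3), compared with 21.9, 23.6 and 23.9 across the shSETD2 libraries, a mean of 23.2 ± 1.09 (SD, n = 3). The shSETD2 libraries lay above the control libraries by a narrow margin. The log2 fold change was 0.17 (SE 0.0531, adjusted p = 0.0248 in limma), or 0.46 relative to the median of all genes. After quantile normalization the log2 fold change was 0.027 (adjusted p = 0.654) and after median ratio scaling 0.51 (adjusted p = 1.64e-04). Without control library 3, shSETD2 library 2 or shSETD2 library 3 it was close to the value with all libraries, at 0.13, 0.15 and 0.14, but missed the threshold (adjusted p = 0.0737, 0.0617 and 0.0786), within a range from 1.64e-04 to 0.654 over the alternatives. The call of CDH2 was also lost with the replicate number as a block (adjusted p = 0.0569 in limma), although these numbers did not pair the libraries.

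CDH1 (ENSG00000039068.18_3; chromosome 16, 68771128 to 68869451, plus strand) was low in both groups beside CDH2. It was at 1.52, 1.43 and 0.860 FPKM across the controls, a mean of 1.27 ± 0.358 (SD, n = 3), compared with 0.0107, 0.0140 and 0.0114 across the shSETD2 libraries. The control libraries all lay above the shSETD2 libraries, and control library 3 was the lowest of them. The ratio of the means was 105.5-fold, and the log2 fold change, which understates changes near 0, was -1.15 (SE 0.121, adjusted p = 1.47e-04), or -0.86 relative to the median of all genes. After quantile normalization the log2 fold change was -0.71.

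Of the 13 annotated type II cadherins, 3 were listed. CDH24 (ENSG00000139880.19_2; chromosome 14, 23516271 to 23526747, minus strand) was at 2.27, 2.11 and 2.64 FPKM across the controls, compared with 4.23, 3.78 and 4.13 across the shSETD2 libraries. The groups did not overlap, and CDH24 was 1.73-fold higher in the shSETD2 libraries, for a log2 difference of 0.60 (SE 0.0780, adjusted p = 4.39e-04), or 0.89 relative to the median of all genes. CDH8 and CDH12, neural cadherins, were below 1 FPKM in every library and went opposite ways. CDH8 was at 0.00375, 0.00335 and 0.00656 across the controls, compared with 0.591, 0.573 and 0.445 across the shSETD2 libraries, and CDH12 was at 0.822, 0.704 and 0.824 across the controls, compared with 0.0364, 0.120 and 0.0763 across the shSETD2 libraries. These 2 genes and CDH13, CDH23 and PCDH1 lay under the level at which a gene was to be named and were chosen after their values were seen. PCDH1 is nevertheless counted among the named genes whose alternatives are summarized in the closing part.

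CDH13 (T-cadherin), which is held by a lipid anchor and has no domain inside the cell, had a listed FPKM of 0 in every control library, and of 0.339, 0.340 and 0.457 across the shSETD2 libraries. CDH23, a long cadherin of hair cell tip links, showed the reverse, at 0.927, 0.967 and 0.969 across the controls, compared with 0.00128, 0 and 0 across the shSETD2 libraries. The groups of each gene lay apart, at levels below 1 FPKM.

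Of 12 annotated protocadherins outside the clusters in the list used, 8 were listed. All 8 passed the threshold as lower in the shSETD2 libraries, beside 51.8% of all genes tested. After quantile normalization, however, PCDH1 was at 0.089 (adjusted p = 0.242, within a range from 2.08e-04 to 0.242 over the alternatives). All but PCDH7 had a mean under 0.5 FPKM in the shSETD2 libraries. They passed the filter on low values only through the control libraries, so they had to differ. Without this filter all 8 were lower too, beside 51.8% of all genes so fitted. A mean of at least 1 FPKM was reached by 7 of the 8 in the control libraries and by 0 in the shSETD2 libraries. The share of all listed genes with such means is not given here, so this count has no background. PCDH10, PCDH17, PCDH18 and PCDH19 belong to the delta-2 protocadherins of the nervous system, and PCDH1, PCDH7 and PCDH9 to the delta-1 protocadherins.

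PCDH10 (ENSG00000138650.8_3; chromosome 4, 134070470 to 134129761, plus strand) was at 15.1, 14.3 and 13.4 FPKM across the controls, a mean of 14.2 ± 0.839 (SD, n = 3), compared with 0, 0 and 0.00700 across the shSETD2 libraries. The log2 fold change was -3.92 (SE 0.0598, adjusted p = 3.89e-08), or -3.63 relative to the median of all genes. After CDH2 it had the highest control level of the 27 genes, and it was close to 0 in all shSETD2 libraries.

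PCDH9 (ENSG00000184226.14_3; chromosome 13, 66876966 to 67804577, minus strand) was at 10.7, 11.2 and 10.7 FPKM across the controls and listed at 0 in every shSETD2 library (log2(FPKM + 1) difference of -3.57, SE 0.0507, adjusted p = 3.04e-08). PCDH20 (ENSG00000280165.1_3), also on chromosome 13, was at 3.68, 3.92 and 3.96 in the control libraries and listed at 0 in every shSETD2 library. PCDH19, on chromosome X, was at 0.960, 1.17 and 1.14 in the control libraries and listed at 0 likewise. For these 3 genes no fold change can be given, since one group has no value above 0.

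PCDH7 kept a low level in the shSETD2 libraries, at 0.632, 0.705 and 0.650 FPKM in libraries 1 to 3 against 3.81, 4.31 and 3.73 in control libraries 1 to 3. It was 5.97-fold lower, with a log2 fold change of -1.57 (SE 0.0660, adjusted p = 1.93e-06). PCDH17 and PCDH18 were also lower, with means of 1.92 and 1.33 across the controls, compared with 0.326 and 0.290 across the shSETD2 libraries and log2 fold changes of -1.14 and -0.85, or -0.67 and -0.34 after quantile normalization. PCDH1 was at 0.727, 0.865 and 0.852 across the controls, compared with 0.291, 0.303 and 0.354 across the shSETD2 libraries, a log2 fold change of -0.46 (adjusted p = 3.98e-04) that was -0.17 relative to the median of all genes and turned to 0.089 after quantile normalization.

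Promoter sequences of RefSeq, given in the build GRCh38.p14 as 300 bases from 250 before to 50 after a start, were matched by symbol for 22 of the 27 genes. CDH1, CDH13, CDH24, PCDH10 and PCDH20 had no entry. The promoter of PCDH9 (GRCh38.p14, chr13:67230287-67230586, minus strand) is shown because the gene was above 10 FPKM in every control library and listed at 0 in every shSETD2 library, with each CG dinucleotide in capitals.
PCDH9: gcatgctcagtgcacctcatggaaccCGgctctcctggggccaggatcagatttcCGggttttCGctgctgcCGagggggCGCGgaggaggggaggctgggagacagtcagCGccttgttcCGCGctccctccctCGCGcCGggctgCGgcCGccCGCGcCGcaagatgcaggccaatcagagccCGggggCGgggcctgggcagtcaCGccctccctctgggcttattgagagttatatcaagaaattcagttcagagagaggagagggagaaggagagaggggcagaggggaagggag
It holds 20 CG dinucleotides, more than 58.8% of all 35116 promoter windows. The median was 13.5 for the 6 listed non-clustered protocadherins with an entry and 14 for all promoters. DNA methylation was not measured here.

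The clusters of chromosome 5 span 726.8 kb of GRCh37, from 140165721 to 140892544, and hold 53 annotated genes, of which 12 were listed. By cluster, these were 1 of 15 alpha, 2 of 16 beta and 9 of 22 gamma genes. Of the gamma genes, 7 of 12 PCDHGA, 0 of 7 PCDHGB and 2 of 3 PCDHGC genes were listed. In the annotation of GRCh37, 3 stretches with 2177 exonic bases in all belong to every one of the 22 gamma genes, and 3 with 2866 bases to every one of the 15 alpha genes, whereas no exonic base is shared between beta genes. Shared bases made up from 32.4% to 44.7% of the exonic bases of the 9 listed gamma genes and 46.6% of those of the listed alpha gene PCDHAC2. A read from a shared exon can be given to any of these genes, and how the authors' quantification divided such reads is not known, so the values of single alpha and gamma genes are uncertain.

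**Figure D2:**
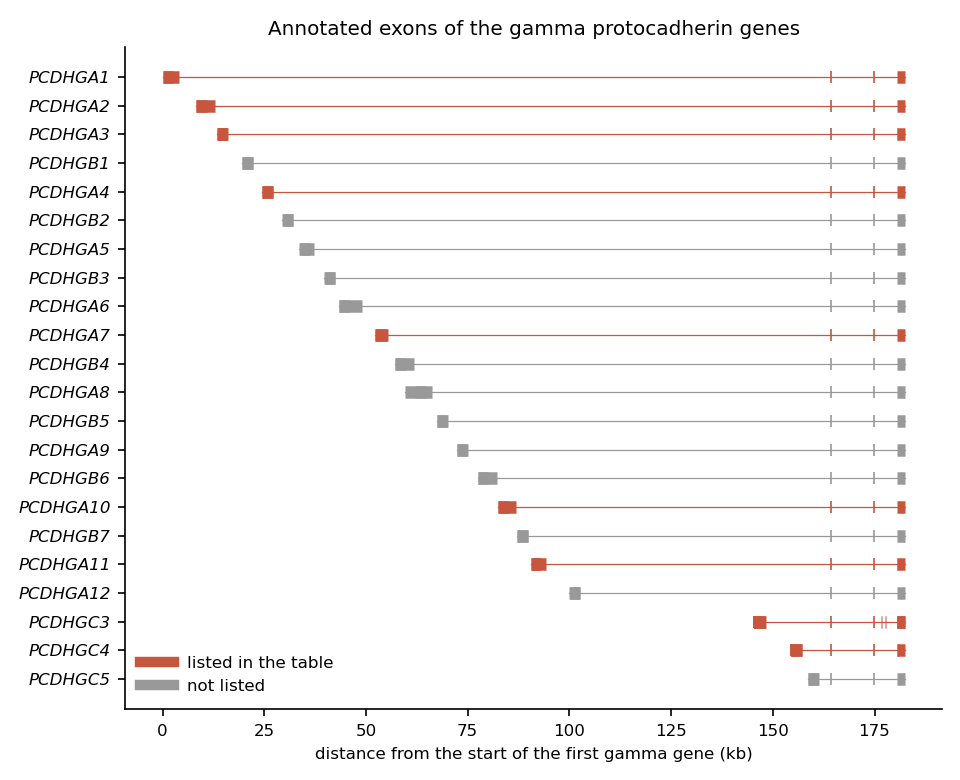
Annotated exons of the 22 gamma protocadherin genes against the distance in kb from the start of the first of them, with the 9 genes listed in the table in red and the other 13 in grey. Blocks are exons to scale, ticks are exons too short to draw to scale, and the exons at the right end are shared by all 22 genes while the first exons are not.

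Most promoters of clustered protocadherins, but not all, are known for a short conserved element with the core CGCT. The letters CGCTG were searched on both strands of the 300-base promoter windows of RefSeq. They were found in 46 of 52 windows of clustered genes (88.5%), in 5 of 6 windows of listed non-clustered protocadherins (83.3%), in 4 of 10 windows of listed CDH genes (40.0%) and in 48.0% of all 35116 windows, although all windows had a higher median GC content (58.7%) than those of the clustered genes (40.7%). On the strand of the gene, the shares were 84.6%, 83.3%, 30.0% and 30.7%. The 10 windows of listed CDH genes came from only 4 genes. On either strand, CDH2, CDH8 and CDH12 each held a match in at least 1 window, and CDH23 in none. The match before the start and nearest to it is shown in capitals for the 11 listed clustered genes that had one before the start on the strand of the gene, with 20 bases on either side, so that genes called higher in the shSETD2 libraries without the filter (PCDHAC2, PCDHGA10 and PCDHGC3) can be read beside those called lower (PCDHGA11 and PCDHGC4) and the others, called neither. Positions are on chromosome 5 of GRCh38.p14, plus strand.
PCDHAC2 (chr5:140966361-140966405, 95 bases before the start): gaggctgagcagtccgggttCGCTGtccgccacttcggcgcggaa
PCDHB13 (chr5:141213861-141213905, 38 bases before the start): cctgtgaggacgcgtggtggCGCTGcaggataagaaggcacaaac
PCDHGA1 (chr5:141330399-141330443, 95 bases before the start): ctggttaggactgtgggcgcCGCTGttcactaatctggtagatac
PCDHGA2 (chr5:141338699-141338743, 41 bases before the start): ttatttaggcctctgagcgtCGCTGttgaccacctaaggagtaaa
PCDHGA3 (chr5:141343763-141343807, 46 bases before the start): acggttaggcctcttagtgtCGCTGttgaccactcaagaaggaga
PCDHGA4 (chr5:141354956-141355000, 45 bases before the start): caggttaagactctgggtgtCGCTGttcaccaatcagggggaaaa
PCDHGA7 (chr5:141382645-141382689, 77 bases before the start): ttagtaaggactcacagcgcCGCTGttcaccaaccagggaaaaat
PCDHGA10 (chr5:141412927-141412971, 40 bases before the start): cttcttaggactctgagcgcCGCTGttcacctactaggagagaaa
PCDHGA11 (chr5:141420968-141421012, 63 bases before the start): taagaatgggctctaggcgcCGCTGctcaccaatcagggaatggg
PCDHGC3 (chr5:141475895-141475939, 51 bases before the start): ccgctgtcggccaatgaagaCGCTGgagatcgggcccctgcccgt
PCDHGC4 (chr5:141484948-141484992, 62 bases before the start): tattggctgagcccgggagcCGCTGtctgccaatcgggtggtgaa
A match is a description of letters and shows neither the conserved element nor a site in use. Windows of genes called higher and of genes called lower held it, and that of PCDHB14, called higher, did not.

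Of the 12 clustered genes, PCDHGA7, PCDHGA11 and PCDHGC3 passed the filter on low values. Of these 1 was higher in the shSETD2 libraries, 1 lower and 1 neither, and without the filter 4 of the 12 were higher, 2 lower and 6 neither, beside 25.6% higher and 51.8% lower over all genes so fitted. The count of 4 became 9 after quantile normalization and 8 without shSETD2 library 2. With the filter, 4613 of all 14068 genes were higher and 5953 lower after quantile normalization, against 3774 and 7283 as deposited. Shares over all genes in these 2 fits without the filter are not given here. PCDHGC3 (ENSG00000240184.6_3; chromosome 5, 140855514 to 140892546, plus strand) was at 0.699, 1.70 and 0.598 FPKM across the controls, compared with 4.84, 11.2 and 4.08 across the shSETD2 libraries. The groups did not overlap, and library 2 was the highest in each. PCDHGC3 was 6.72-fold higher in the shSETD2 libraries, for a log2 difference of 1.88 (SE 0.371, adjusted p = 0.00333), or 2.17 relative to the median of all genes. Without shSETD2 library 2 the log2 fold change was 1.49, and the adjusted p ranged from 2.51e-04 to 0.0151 over the alternatives.

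PCDHGA11 (ENSG00000253873.5_4; chromosome 5, 140800614 to 140892546, plus strand) went the other way. It was at 0.934, 0.946 and 1.03 FPKM across the controls, compared with 0.0177, 0.0697 and 0.0462 across the shSETD2 libraries. All control libraries lay above all shSETD2 libraries, by 21.8-fold in the means, and the log2 fold change was -0.91 (SE 0.0549, adjusted p = 9.70e-06), or -0.40 after quantile normalization.

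PCDHGA7 (ENSG00000253537.2_3; chromosome 5, 140762306 to 140892546, plus strand) was at 0.205, 0.185 and 0.389 FPKM across the controls, compared with 2.61, 0.0733 and 2.26 across the shSETD2 libraries. The groups overlapped, because shSETD2 library 2 lay below every control library. The log2 fold change of 0.89 (SE 0.455) did not pass the threshold (adjusted p = 0.116). Without shSETD2 library 2 it was 1.45 (adjusted p = 1.20e-04), and after quantile normalization 1.24 (adjusted p = 0.0358), within a range from 1.20e-04 to 0.311 over the alternatives.

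The same library was the lowest of the shSETD2 libraries for PCDHGA2, PCDHGA3 and PCDHGA4, but not for PCDHGA1, at 0.105, 0.145 and 1.85, where library 3 stood apart. In shSETD2 library 2, the summed FPKM of PCDHGA1, PCDHGA2, PCDHGA3, PCDHGA4 and PCDHGA7 was 0.516, against 6.05 and 6.75 in shSETD2 libraries 1 and 3 and 0.541, 0.388 and 0.793 in control libraries 1 to 3. These 5 genes, and the range of levels used for comparison, were chosen after their values were seen. PCDHGC3 was highest in the shSETD2 library where the sum of these 5 was lowest, and made up 88.5% of the summed FPKM of the 9 listed gamma genes in shSETD2 library 2, against 42.3% and 34.7% in shSETD2 libraries 1 and 3. Within the shSETD2 libraries, the highest value of PCDHGA7 was 35.6 times the lowest, a ratio reached by 0.0910% of the 8789 genes with a mean of 1 to 15 FPKM in these libraries. For PCDHGC3 the ratio was 2.75, reached by 1.75% of those genes, and the median was 1.16. A gene at 0 in a shSETD2 library has no such ratio. It was counted as not reaching either value and left out of the median, so both shares may be too low.

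In the shSETD2 libraries, the sum over the 9 listed gamma genes varied less than any of its parts, with a coefficient of variation of 5.31%, against 18.2% for PCDHGA10, the least variable of them, and 58.4% for PCDHGC3. In the control libraries, where that of the sum was 18.6%, PCDHGA11 (5.23%) and PCDHGA10 (14.7%) varied less. The sum was 3.07, 3.93 and 2.76 FPKM across the controls, a mean of 3.25 ± 0.605 (SD, n = 3), compared with 11.4, 12.7 and 11.8 across the shSETD2 libraries, a mean of 12.0 ± 0.635 (SD, n = 3). The groups of sums lay apart, with a ratio of 3.68. The log2 of this ratio was 1.88, and 2.23 after median ratio scaling. No test across genes applies to this sum, which was formed after the values were seen.

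**Figure D3:**
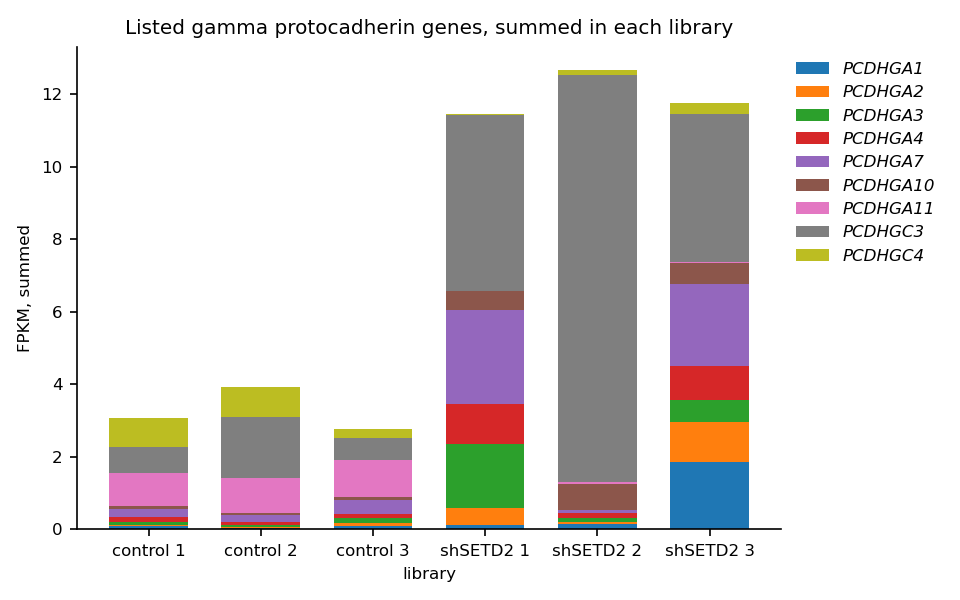
Summed FPKM of the 9 listed gamma protocadherin genes in each of the 6 libraries, each bar divided by gene. The sums are 2.76 to 3.93 in the control and 11.4 to 12.7 in the shSETD2 libraries, and PCDHGC3 takes 88.5% of the bar of shSETD2 library 2.

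PCDHGC4, the other listed C-type gamma gene, was at 0.815, 0.823 and 0.244 FPKM across the controls, compared with 0.0212, 0.143 and 0.308 across the shSETD2 libraries. Its groups overlapped, and its adjusted p of 0.0429 without the filter was not kept under 6 of 9 alternatives, with a range from 0.00356 to 0.817. PCDHGA10 was at 0.0834, 0.0694 and 0.0933 across the controls, compared with 0.511, 0.726 and 0.578 across the shSETD2 libraries, without overlap (log2 fold change 0.57, adjusted p = 1.87e-04 without the filter), and shSETD2 library 2 was its highest.

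The 3 listed genes of the alpha and beta clusters were below 1 FPKM in all libraries and were fitted only without the filter. PCDHAC2, the last gene of the alpha cluster, was at 0.0172, 0.00935 and 0 FPKM across the controls, compared with 0.716, 0.477 and 0.722 across the shSETD2 libraries. PCDHB14 was at 0.151, 0.195 and 0.0567 across the controls, compared with 0.378, 0.493 and 0.465 across the shSETD2 libraries, and PCDHB13 at 0.0876, 0.226 and 0.102 across the controls, compared with 0.179, 0.0960 and 0.0722 across the shSETD2 libraries. The groups lay apart for PCDHAC2 (log2 fold change 0.70, adjusted p = 1.45e-04) and PCDHB14 (0.35, adjusted p = 0.00250) and overlapped for PCDHB13 (-0.028, adjusted p = 0.711), whose sign turned after median ratio scaling, without control library 2 and after quantile normalization, where it passed the threshold as higher (0.29, adjusted p = 0.00391, within a range from 0.00391 to 0.997 over the alternatives). The log2 fold change of PCDHB14 ranged from 0.30 to 0.67 over the alternatives without the filter.

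Genes within 500 kb of the clusters on GRCh37 did not share one direction. PCDH1, which lies in this range and was lower, is described above with the non-clustered protocadherins and is not counted here. Of the 25 other listed genes, 24 were tested, of which 9 rose, 7 fell and 8 did neither, beside 26.8% higher and 51.8% lower over all genes tested, and their median log2 fold change was 0.059, against -0.29 over all genes tested. Before the clusters, HBEGF, a growth factor gene, was at 2.23, 1.95 and 1.63 FPKM across the controls, compared with 38.8, 38.9 and 39.1 across the shSETD2 libraries (log2 fold change 3.77), and PFDN1, a chaperone gene, had a log2 fold change of 0.87. After them, GNPDA1 and DIAPH1, a formin gene whose end lies 2.04 kb beyond the gamma cluster, had log2 fold changes of 0.75 and 0.73. TAF7, between the clusters, was at 34.1, 36.98 and 34.9 across the controls, compared with 33.6, 34.9 and 31.3 across the shSETD2 libraries, which overlapped.

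The proteins that act on clustered protocadherins include CTCF and cohesin, which fold the clusters, and the methyltransferases DNMT3A and DNMT3B. All 14 genes of this list were tested, and 2 were higher, 8 lower and 4 neither in the shSETD2 libraries, with a median log2 fold change of -0.34 beside -0.29 over all genes, of which 26.8% were higher and 51.8% lower. After median ratio scaling 5 of the 14 were higher and 5 lower, and after quantile normalization 1 and 8. Over all 14068 genes, 5305 were higher and 5394 lower after median ratio scaling, and 4613 and 5953 after quantile normalization. The counts of the lists below in these 2 fits are to be read beside these. DNMT3B was at 10.0, 9.63 and 8.12 FPKM across the controls, compared with 3.51, 2.71 and 3.27 across the shSETD2 libraries, a log2 fold change of -1.30 (adjusted p = 3.83e-05). DNMT3A and STAG2, a cohesin subunit, had log2 fold changes of -1.25 and -1.11. SMC1A, the most abundant of the list, had means of 56.8 and 40.8 and a log2 fold change of -0.47 (-0.12 after median ratio scaling and -0.73 after quantile normalization), while CTCF, at 19.1 to 19.6 in the control and 19.9 to 20.2 in the shSETD2 libraries, missed the threshold as deposited but was higher after median ratio scaling (log2 fold change 0.39, adjusted p = 9.08e-05, within a range from 9.08e-05 to 0.371 over the alternatives). WAPL, a cohesin release factor named after its values were seen, turned from lower (-0.17) to higher (0.17) after that scaling (adjusted p = 0.0250, within a range from 0.00425 to 0.0788).

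Regulators of CDH1 went both ways. Of 7 repressors, 2 passed as higher and 4 as lower in the shSETD2 libraries, with a median log2 fold change of -0.85, and of 6 listed activators 2 were higher and 3 lower, with a median of -0.36, beside 26.8% higher and 51.8% lower over all genes tested. The counts of the repressors were the same after median ratio scaling and quantile normalization, while those of the activators were 2 higher and 2 lower, and 3 and 3. SNAI2, a repressor, was at 14.4, 14.5 and 14.1 FPKM across the controls, compared with 0, 0 and 0.0321 across the shSETD2 libraries. TWIST1, at 7.34, 8.02 and 8.37 in the control libraries, and TWIST2 were listed at 0 in every shSETD2 library, while the most abundant repressor, TCF3, had a log2 fold change of 0.83. SNAI1, named after its values were seen, was at 1.96, 2.58 and 3.91 across the controls, compared with 5.97, 4.78 and 6.69 across the shSETD2 libraries, and was higher there (log2 fold change 0.86, adjusted p = 0.00720). CDH1 was lower beside repressors that went both ways. Among the activators, KLF4 was at 1.83, 2.46 and 1.74 across the controls, compared with 13.9, 12.3 and 13.3 across the shSETD2 libraries, ELF3 had a log2 fold change of 2.10, KLF5, the most abundant, one of -0.51 that missed the threshold after median ratio scaling (adjusted p = 0.0539, within a range from 7.45e-04 to 0.0539), and CDX2 was at 7.13, 6.63 and 6.12 in the control libraries and listed at 0 in the shSETD2 libraries.

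**Figure D4:**
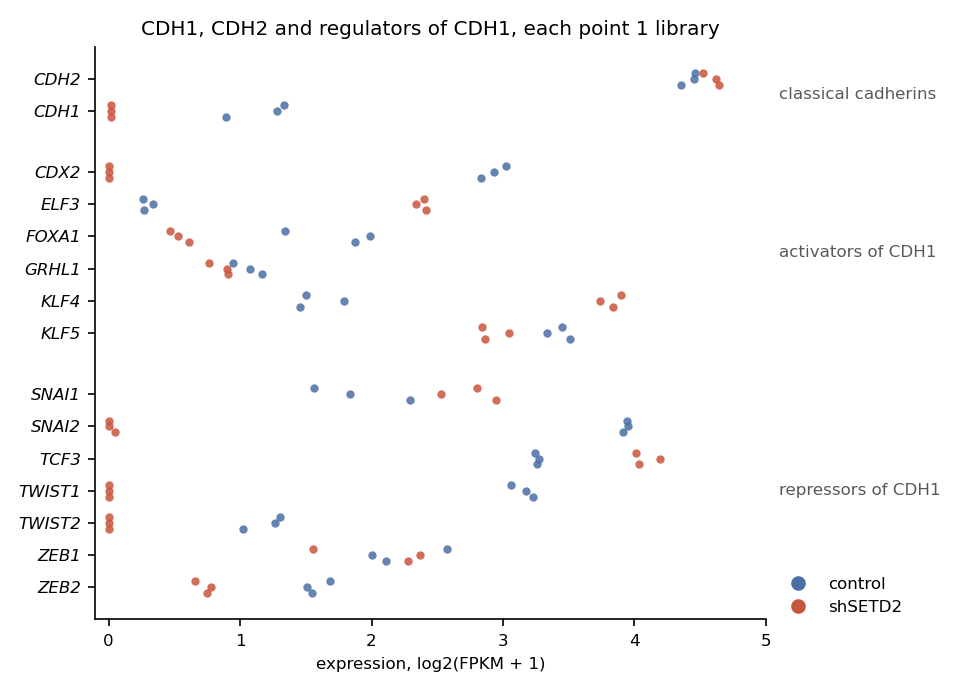
Expression of CDH1, CDH2 and the listed activators and repressors of CDH1 on the log2(FPKM + 1) scale, with 1 point for each of the 3 control (blue) and 3 shSETD2 (red) libraries. CDH1 and the repressors SNAI2, TWIST1 and TWIST2 lie at or near 0 in all shSETD2 libraries, the repressors SNAI1 and TCF3 lie higher there than in the controls, and the shSETD2 and control points of CDH2 lie close together, with no difference past the threshold after quantile normalization.

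Catenins and linkers join classical cadherins to actin. Of 9 tested, 5 passed as higher and 3 as lower in the shSETD2 libraries, with a median log2 fold change of 0.90, beside 26.8% higher and 51.8% lower over all genes tested. After median ratio scaling, as after quantile normalization, 6 were higher and 2 lower. JUP (plakoglobin) was at 11.3, 12.7 and 12.1 FPKM across the controls, compared with 45.4, 41.9 and 45.2 across the shSETD2 libraries. CTNNA1 (alpha-catenin) and CTNNAL1, the most abundant of the list, had log2 fold changes of 1.42 and 1.20. The lower genes, named after their values were seen, were CTNNB1 (beta-catenin), with means of 40.4 and 27.8 and a log2 fold change of -0.52 (adjusted p = 1.49e-05; -0.18 after median ratio scaling and -0.75 after quantile normalization), AFDN (-0.83; -0.50 and -0.85 likewise) and ARVCF (-0.26). The call of ARVCF was lost after median ratio scaling (-0.013, adjusted p = 0.907), its sign turned after quantile normalization (0.066, adjusted p = 0.506), and its adjusted p ranged from 0.0112 to 0.907 over the alternatives. Of 6 desmosomal genes tested, 4 were higher and 2 neither (median log2 fold change 0.36), against 6 higher after median ratio scaling, and 4 higher and 1 lower after quantile normalization, with PKP3 listed at 0 across the controls, compared with 7.87, 7.41 and 7.87 across the shSETD2 libraries, and DSC3 and DSC2 at log2 fold changes of 0.54 and 0.36 (0.87 and 0.67 after median ratio scaling). DSG2, the most abundant desmosomal cadherin, was at 48.9, 51.6 and 48.9 across the controls, compared with 49.4, 52.1 and 48.6 across the shSETD2 libraries, which overlapped. Its log2 fold change was 0.0063 as deposited, -0.26 after quantile normalization and 0.35 after median ratio scaling, with adjusted p-values from 2.33e-04 to 0.919 over the alternatives.

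Among distant members of the cadherin superfamily, 5 of 12 tested were higher and 7 lower, with a median log2 fold change of -0.33, beside -0.29, 26.8% higher and 51.8% lower over all genes. Of the 12, 5 were higher and 5 lower after median ratio scaling, and 6 and 6 after quantile normalization. DCHS1, a large cadherin that binds FAT4, was at 2.40, 2.25 and 2.49 FPKM across the controls, compared with 0.144, 0.144 and 0.147 across the shSETD2 libraries, and CELSR2 and RET had log2 fold changes of -1.54 and -1.25, while CLSTN1, the most abundant, had one of 0.88. Of 4 nectins tested (median 0.066), NECTIN2 was higher (log2 fold change 0.21, or 0.55 after median ratio scaling) and 3 were neither, but 3 were higher after median ratio scaling and 2 after quantile normalization. NECTIN1, named after its values were seen, moved from 0.095 to 0.38 and 0.33 in these 2 fits (adjusted p = 0.00113 and 0.00187, within a range from 0.00113 to 0.365). NECTIN4, also listed but under the filter on low values, had means of 0.544 and 0.0414 and was lower without the filter (-0.56, adjusted p = 3.66e-04). Of 6 genes for cleavage of cadherins, 3 were higher and 1 lower (median 0.20), against 4 and 0 after median ratio scaling and 2 and 0 after quantile normalization, with ADAM10, which sheds the outer part of CDH1 and CDH2, at 4.03, 4.29 and 4.14 across the controls, compared with 7.56, 8.99 and 8.83 across the shSETD2 libraries. ADAM15 and NCSTN, the most abundant of the list, had log2 fold changes of 0.26 and 0.22 (0.58 and 0.55 after median ratio scaling), and PSEN2 one of -0.30. The calls of NCSTN and PSEN2 were lost after quantile normalization (adjusted p = 0.113 and 0.545) and without single libraries, and that of PSEN2 also after median ratio scaling (0.869), within ranges from 2.78e-04 to 0.113 for NCSTN and from 0.00860 to 0.869 for PSEN2.

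**Figure D5:**
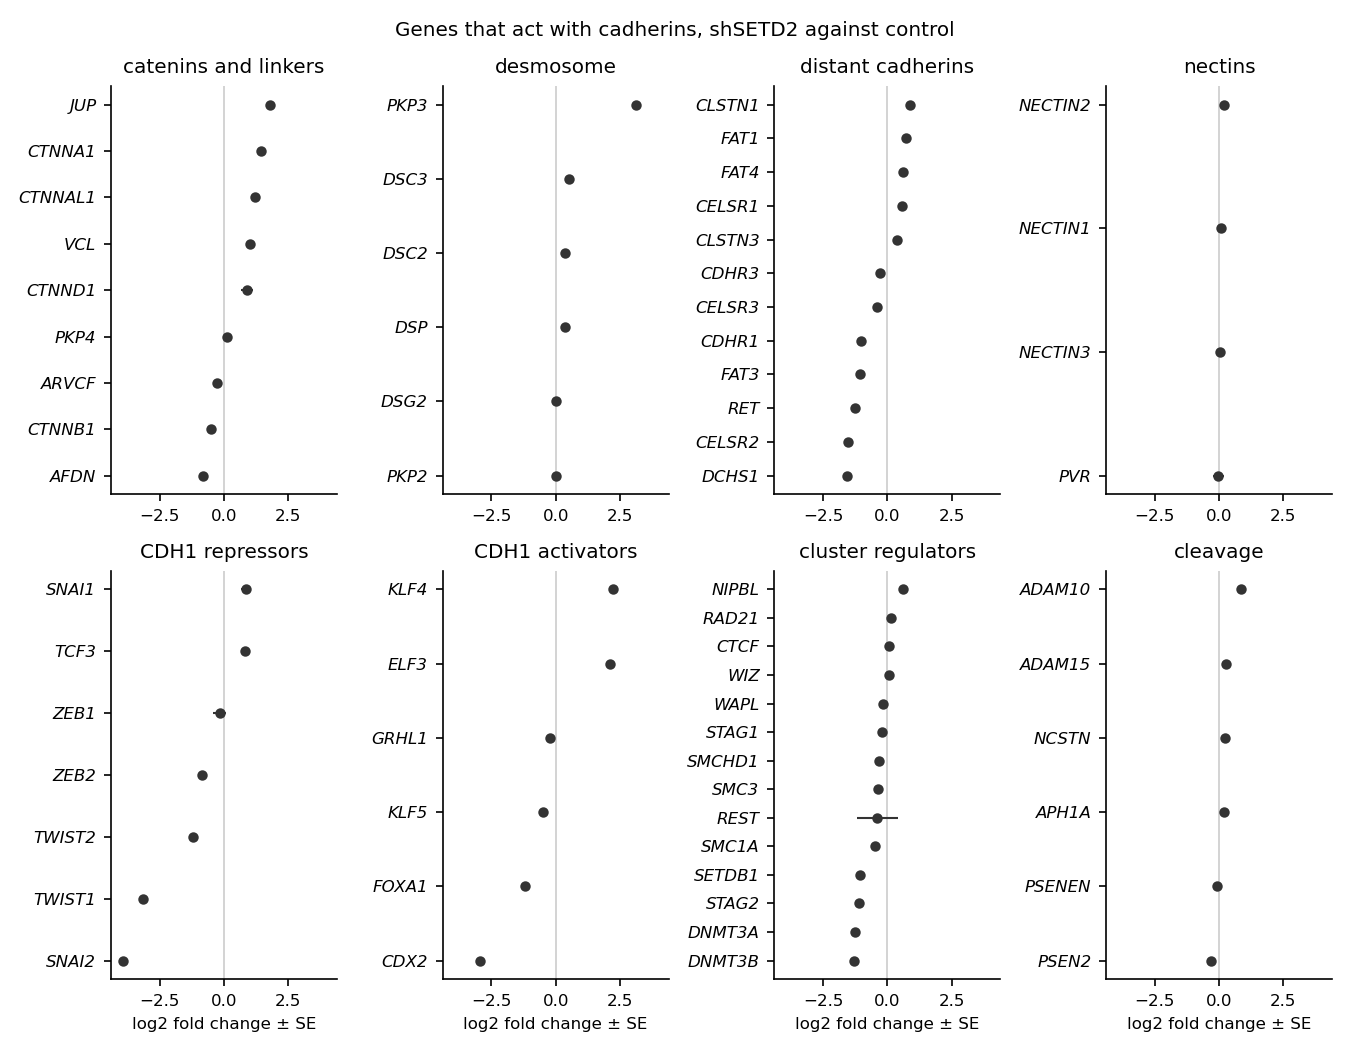
Log2 fold change of log2(FPKM + 1), shSETD2 against control, with its SE for each tested gene of 8 lists of genes that act with cadherins. Catenins and linkers reach 1.79 for JUP, and the repressors of CDH1 reach -3.92 for SNAI2, while DSG2 lies at 0.0063 as deposited and at -0.26 after quantile normalization.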

How the data were processed

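The authors sequenced stranded libraries of total RNA, aligned them with HISAT2 to the genome build hg19 (GRCh37) and deposited FPKM from Ballgown for each gene and library. The kit keeps strand, but whether strand was used is not given in the sources used here. Versions, and how reads matching several genes were divided, are not given in the sources used here. The authors' comparison of the groups, with log2 fold changes and p- and q-values in a second table that repeats the FPKM, was not used. FPKM hold no depth, so depth and counting error are unknown and precision is given by the spread over 3 libraries. The FPKM summed to between 218769 and 224603 per library.

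Each gene averaging 0.5 FPKM or more over the 6 libraries was tested on log2(FPKM + 1) with limma 3.58.1 (lmFit, eBayes with an intensity trend) in R 4.3.3, 3 control against 3 shSETD2 libraries, with Benjamini-Hochberg adjustment over all 14068 genes and a threshold of 0.05. An exact permutation test of 3 against 3 libraries cannot give a two-sided p under 0.1. The fit was tested on simulated data, but the outcome is not given here and no result rests on it. Named genes were the CDH and non-clustered PCDH genes with a mean of at least 1 FPKM in 1 group, the 4 most abundant of each cluster with the largest tested change in each direction, the 2 largest changes among neighbours on each side of the clusters, and for each list of partners up to 3 called genes with the largest change and the most abundant. The members and lists were chosen with earlier results of these data known. A gene of the lists is not reported here. Pseudocounts of 0.1 and 0.01, no filter or a mean of at least 5 FPKM, 3 scalings, no intensity trend, the replicate number as a block and each library left out were tried as alternatives. Fits without the filter under other scalings or without a library, and the summed gamma genes, were chosen after seeing the data. Promoters came from RefSeq (GRCh38.p14), exons from GENCODE release 44 on GRCh37, and tables and figures from matplotlib 3.10.9, pandas 2.3.3 and numpy 2.4.6 under Python 3.11.15.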

Additional observations from a re-analysis of the deposited data

How the results depend on the processing

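Of 46 named genes that passed the filter on low values, 39 kept their direction and their side of the threshold under every alternative run. Clustered genes fitted only without the filter were not among the 46. Of those, PCDHB13 turned its sign, and the calls of PCDHB13, PCDHGA2, PCDHGA3, PCDHGA4 and PCDHGC4 changed in some fits. SETD2, ARVCF, WAPL, CTCF and NECTIN1 were not among the 46 either, and their calls changed in some fits. Without the filter on low values, 8 cadherin and protocadherin genes were higher, and in the clusters 4 were higher and 2 lower, since more genes were tested. With a mean of at least 5 FPKM, 5647 genes of the table passed the threshold, with 1 member higher and 2 lower, and 0 clustered genes either way, since no clustered gene was left to test. Quantile normalization gave 2 clustered genes higher. Leaving out a library gave 1 to 2 clustered genes higher, with 2 without shSETD2 library 2. In fits without the filter, chosen after seeing the data, 1 clustered gene was lower after median ratio scaling, and after quantile normalization 9 were higher and 1 lower. Leaving out a library there gave 4 to 8 clustered genes higher, with 8 without shSETD2 library 2, and 1 to 2 lower. Shares over all genes in these fits without the filter are not given here. The counts of clustered genes in them therefore have no background and are no result about the clusters. The log2 fold change of SETD2 was -0.25 after median ratio scaling (adjusted p = 0.377) and -0.83 to -0.45 when a library was left out, and passed the threshold without control library 2 (adjusted p = 0.00666) and without shSETD2 library 3 (0.0420). The sign was reversed for PCDH1 after quantile normalization (0.089) and for DSG2 after quantile normalization (-0.26) and when leaving out a library (-0.022 to 0.032). After median ratio scaling 5305 genes of the table were higher and 5394 lower, against 3774 and 7283 as deposited, and the log2 ratio of the gamma sums was 2.23. After quantile normalization 4613 genes of the table were higher and 5953 lower. Otherwise the cause of these shifts was not tested.

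The replicate numbers did not pair the libraries, with correlations of -0.0237, 0.0177 and -0.00766 between the deviations of same-numbered libraries. With the replicate number as a block, 10976 genes passed the threshold, the log2 fold change of SETD2 of -0.58 had an adjusted p of 0.0156, and 2 members were higher, CDH2 having an adjusted p of 0.0569.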

Other observations

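Further marker lists were read in the same libraries, and their part in the results on cadherins was not tested. Of 12 genes of fibroblasts and mesenchyme, 7 were listed, and COL1A2, DCN, FAP, PDGFRA and THY1 were not. Their summed FPKM was 73.0, 71.9 and 87.9 across the controls, compared with 146.1, 143.0 and 152.3 across the shSETD2 libraries, with VIM the most abundant. VIM and FN1 carried this sum and were higher. COL1A1 was lower, with means of 2.78 and 0.269 (adjusted p = 2.59e-06 in limma), as were, without the filter on low values, COL3A1 (0.739 and 0.00854, adjusted p = 1.16e-05) and LUM (0.651 and 0.0258, adjusted p = 1.51e-04). Of 7 endothelial genes, ESAM was listed, at 0.537, 0.281 and 0.423 across the controls, compared with 48.4, 42.0 and 46.1 across the shSETD2 libraries, whereas the defining markers PECAM1, VWF, CDH5, KDR and TEK were not listed. Of 7 leukocyte genes, CD68 and CD14 were listed, with sums of 1.33, 1.35 and 1.62 across the controls, compared with 1.91, 2.24 and 2.02 across the shSETD2 libraries.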
